A study of Mus musculus with 16 samples.

Results

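RNA sequencing measured gene expression in mouse CD8+ T cells kept in fresh medium without methionine or in fresh medium that contained it (complete medium). The groups held 4 libraries each, 8 of the 16 in the series, and were chosen by their labels and not by any measured value. All cells were of the strain C57BL/6. Before the 36 h in these media they had been stimulated through CD3 and CD28 by antibodies for 2 days, so the complete medium is the control for methionine and neither group is a resting one. The labels give neither the methionine concentration of the complete medium nor the origin of the 4 libraries of a group, so p-values measure the spread between libraries, which may be technical. The other 8 libraries came from cells in the supernatant of B16F10, a mouse melanoma line, with and without added methionine, and they enter only the last comparison.

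Methionine starts every new protein and is the precursor of S-adenosylmethionine, the methyl donor for DNA, RNA, histones and other proteins, which also gives the aminopropyl groups of the polyamines. The enzyme encoded by Mat2a makes S-adenosylmethionine, and the enzyme encoded by Ahcy removes S-adenosylhomocysteine, the product left after methyl transfer. Activated CD8+ T cells import amino acids in large amounts while they divide, make cytokines and fill their cytotoxic granules.

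Recovered reads averaged 34.5 M ± 2.10 without methionine and 35.4 M ± 7.63 in complete medium (SD, n = 4 each), with ranges of 32.4 to 36.5 M and 25.8 to 42.3 M, and did not differ in a two-sided exact permutation test (p = 0.914). Genes with at least 1 read numbered 15225 to 15439 without methionine, against 14509 to 14949 in complete medium, and the groups did not overlap (exact permutation p = 0.0286, the smallest that 4 against 4 libraries allow). The 20 genes with most reads held 6.17% ± 0.113 of the reads without methionine and 8.42% ± 0.115 in complete medium (SD, n = 4 each). Levels below are depth-normalized reads, the recovered reads of a gene divided by 1 factor per library. They are not scaled to gene length, so they compare a gene between libraries and not 1 gene with another. FPKM values, which are scaled to length, serve the comparisons between genes.

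The T cell label was checked against marker genes. Cd8a, which encodes the CD8 alpha chain, had 30349, 30383, 31107 and 30666 reads without methionine, against 24756, 24022, 24409.9 and 24779 reads in complete medium, and Cd3e, a chain of the CD3 complex, had 5778, 5753, 5886 and 5980.3 reads without methionine, against 10462, 10449.5, 10528 and 10270.1 in complete medium. The 6 T cell markers with a value summed to 115696 to 116807 reads without methionine and to 154737 to 162399 in complete medium. Cd8a was the marker that rose, by 0.32, a call lost in the FPKM table (adjusted p 0.0969), and 4 fell. Markers of other cells moved in both directions. Without methionine, against complete medium, the summed reads were 3981 to 4126 against 1981 to 2153 for 7 CD4 T cell markers, with Il17a at 0, 792 to 984 against 519 to 579 for 7 B cell markers, and 67.3 to 85.1 against 21.8 to 36.7 for 5 dendritic cell markers. They were 188 to 233 against 315 to 379 for 5 NK cell markers, 144 to 215 against 343 to 407 for 8 myeloid markers, and 1863 to 1999 against 3542 to 3748 for 4 stromal markers. Melanocyte markers, 6 in number, summed to 257 to 282 against 103 to 134 with Tyrp1 at 0. Among single markers, the CD4 lineage factor gene Zbtb7b had 3672 ± 43.1 reads without methionine, against 1781 ± 90.1 in complete medium, the melanosome gene Pmel 176 ± 5.38 against 29.1 ± 4.81 (but 2.94 against 2.08 FPKM), and the adhesion gene Pecam1 1869 ± 66.4 against 3521 ± 99.7 (SD, n = 4 each). Zbtb7b held most of the CD4 T cell sum, and Pecam1 most of the stromal sum. Of the 4 CD4 T cell markers tested, 3 rose and 0 fell. Cd4 itself did not rise, with 164, 155, 146 and 187 reads without methionine, against 192, 151, 193 and 192 in complete medium. The part of other cells in the results below was not tested, and in bulk RNA fewer cells of a type and less RNA per cell cannot be told apart.

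The comparison asked which genes changed when methionine was removed. Of 17159 genes, the 12487 with a mean of at least 10 reads over the 8 libraries were tested on log2(reads + 1) with limma. A gene is said to have risen or fallen where its Benjamini-Hochberg adjusted p was below 0.05, and log2 fold changes are without methionine over complete medium. By this rule 85.8% of the genes were called, 10710 in all, of which 5404 were higher (43.3%) and 5306 lower (42.5%). Scaling each library to its total reads instead gave 6365 higher and 4406 lower, 2175 and 1352 of them at least 2-fold. In the FPKM table, where 10942 genes were tested, 6625 were called, 2986 of them higher and 3639 lower, and with a block for the replicate number 8825. Replicates were close in the depth-normalized reads, with a median SD of 0.060 without methionine and 0.074 in complete medium on the log2 scale, against a median change of 0.57 in size. The groups did not overlap for 81.3% of the genes, 40.9% higher and 40.4% lower. Of the calls, 4627 were smaller than 1.5-fold, so a second rule asked for at least 2-fold as well. It left 1766 genes higher (14.1%) and 1700 lower (13.6%). A gain of at least 8-fold was seen for 178 genes and a loss of at least 8-fold for 112. These shares are the background for every gene group below, whose members were read against them and not tested as a group. The background is not matched for level, on which the shares depend. In the quintile with lowest mean reads 25.7% were at least 2-fold higher and 21.5% lower, against 6.2% and 11.4% in the highest. A group of weakly or strongly read genes may differ from the background for this reason alone.

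**Figure D1:**
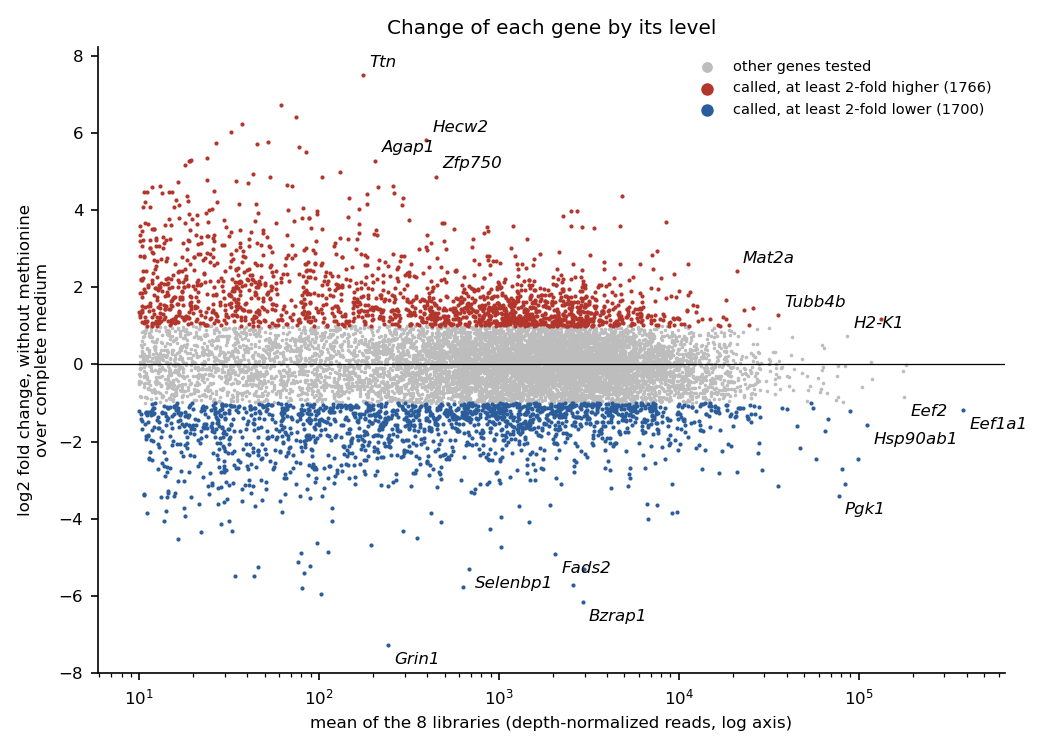
Log2 fold change without methionine over complete medium (vertical axis) against the mean of the 8 libraries in depth-normalized reads (horizontal log axis) for the 12487 genes tested. Genes called and at least 2-fold higher (1766) or lower (1700) are coloured, the others are grey, and the named genes are those of the text with the largest folds and the largest differences in reads.

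In reads, the losses outweighed the gains at this scaling. Summed over genes, the mean levels fell by 9.21 M reads and rose by 5.37 M reads without methionine. The 8 genes with the largest decreases made up 12% of the first sum, and the 8 with the largest increases 5.43% of the second. The largest decrease was that of Eef1a1, which encodes the elongation factor that brings aminoacyl-tRNA to the ribosome. Eef1a1 had 231607, 236509, 234109 and 231155 reads without methionine, against 540911, 511849, 545012 and 530473 reads in complete medium, and fell by 1.19 on the log2 scale (SE 0.031, adjusted p 7.74e-21). Quantile normalization, which gives the gene with most reads in every library the same value, left no change in it. Each library without methionine gave it 0.70% to 0.72% of its reads, and each library with methionine 1.41% to 1.49%. Eef2, the factor that moves the ribosome along the mRNA, had 127791, 129401, 129527 and 127647 reads without methionine, against 230000.0, 230531, 234098 and 229373 in complete medium, with no overlap. Hsp90ab1, a cytosolic HSP90 chaperone, stood at 56089 ± 1263 reads without methionine and 166304 ± 4132 in complete medium (SD, n = 4 each) and fell by 1.57. The other 5 of the 8 encode glycolytic enzymes, Pkm2 (-2.45), Aldoa (-3.10), Pgk1 (-3.40), Ldha (-2.71) and Gapdh (-2.45).

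The 8 largest increases in reads came from genes of several classes. H2-K1, a heavy chain of MHC class I, had 106802, 106517, 106529 and 110842 reads without methionine, against 66379.8, 64739, 65095 and 63567 in complete medium, and rose by 0.73. H2-D1, another class I heavy chain, rose by 0.50, to 73038 ± 1189.9 reads without methionine, against 51500.3 ± 1769 in complete medium (SD, n = 4 each). These paralogs may share reads. B2m, the light chain they pair with, was chosen after its values were seen and went the other way, with 46377 ± 1343 reads without methionine and 75555 ± 1559 in complete medium (SD, n = 4 each; log2 fold change -0.70). Tubb4b, a beta-tubulin gene, had 50001, 50658, 49992 and 52121 reads without methionine, against 20985, 20800.2, 21027 and 20883 in complete medium. Mat2a rose by 2.42, Ccng1 by 1.46, Txnip by 1.41, Eif4g2 by 0.72 and Son by 0.95. Txnip encodes an arrestin that binds thioredoxin and restrains glucose uptake, Eif4g2 a relative of the initiation scaffold eIF4G, and Son a splicing cofactor.

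By fold, the largest rise among annotated genes averaging 100 reads or more was that of Ttn, which encodes the giant sarcomere protein titin. Ttn had 373, 344, 370.3 and 323 reads without methionine, against 1.12, 0, 2.70 and 0.871 in complete medium, so its log2 fold change of 7.50 depends on the added 1. Hecw2, a HECT-type ubiquitin ligase gene, had 770.0, 834, 783 and 709 reads without methionine, against 14.5, 8.47, 15.3 and 13.9 in complete medium (log2 fold change 5.81, adjusted p 6.16e-21). Agap1, a GTPase-activating protein for Arf proteins, had 398, 419, 446 and 346 reads without methionine, against 8.95, 9.88, 13.5 and 6.10 in complete medium. All of these were near the floor of counting in complete medium. Zfp750, a zinc finger factor known from epidermal differentiation, had 869 ± 39.8 reads without methionine and 29.1 ± 5.31 in complete medium (SD, n = 4 each). The others were the chemokine gene Cxcl10 (4.99), the bicarbonate cotransporter gene Slc4a4 (4.86), the scaffold gene Pdzk1 (4.63), the membrane protease gene Tmprss6 (4.59), the myosin gene Myo16 (4.44) and Plaur (4.42), which encodes the urokinase receptor. In FPKM some of these folds were smaller. Pdzk1 stood at 8.32 FPKM without methionine and 2.14 in complete medium, 3.88-fold higher, against 24.8-fold higher in reads. Hecw2 was 27.1-fold higher in FPKM. Ttn was 21.0-fold higher, but very low per length in both groups, at 0.125 FPKM without methionine and 0.00595 in complete medium.

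The largest falls also included genes best known from other tissues. Grin1, the obligatory subunit of NMDA-type glutamate receptors, had 1.79, 1.98, 4.55 and 1.02 reads without methionine, against 489.9, 485, 508 and 438 in complete medium. Bzrap1, a gene of presynaptic scaffold proteins, had 75.2, 82.1, 78.3 and 83.6 reads without methionine, against 6152, 6271, 5466 and 5193 in complete medium (log2 fold change -6.16, adjusted p 5.24e-28), and it was far above counting error in all 8 libraries. Selenbp1, which encodes an oxidase of the methionine breakdown product methanethiol, had 35.8, 48.4, 28.2 and 22.4 reads without methionine, against 1356, 1179.7, 1463 and 1299.5 in complete medium. Fads2, the delta-6 desaturase of long fatty acids, fell by 4.92, and Aldoc fell by 5.32. Fam183b (-5.94), the copper-transporting ATPase gene Atp7b (-4.87), Plcxd1 (-4.74) and the dynamin gene Dnm1 (-4.67) complete the named falls. In FPKM Plcxd1 stood at 1.24 without methionine and 13.6 in complete medium, a smaller fold than in reads.

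A stricter reading asked which genes were read in 1 group only. Genes with at most 3 reads in every library of complete medium and at least 20 in every library without methionine numbered 33, and the reverse held for 2. With a minimum of 10 reads, chosen after seeing the data, the counts were 55 and 8. Hapln3, a hyaluronan link protein gene, had 94.0, 58.3, 70.1 and 78.5 reads without methionine and 0 in all 4 libraries of complete medium, at least 23.3-fold higher against a floor of 3 reads per library. Abca13, a large ABC transporter gene, had 68.9, 64.3, 60.1 and 65.3 without methionine and 0 in complete medium, and Cyp1b1, a cytochrome P450 gene, 62.7, 58.3, 39.1 and 55.1 and 0. Ogn, an extracellular matrix proteoglycan gene, had 148, 134, 158 and 153 reads without methionine, against 0, 1.41, 2.70 and 0 in complete medium (2.06 and 0.0511 FPKM), and Gcnt3, a mucin-type glycosyltransferase gene, 133, 141, 178 and 157 against 2.24, 4.23, 1.80 and 0.871. The genes read only with methionine were Flt4, the VEGF-C receptor gene, with 1.79, 0, 0.910 and 0 reads without it and 58.2, 70.6, 63.0 and 77.5 with it, and the cation channel gene Trpc1, with 0.895, 1.98, 2.73 and 0 and 36.9, 39.5, 54.0 and 40.1.

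**Figure D2:**
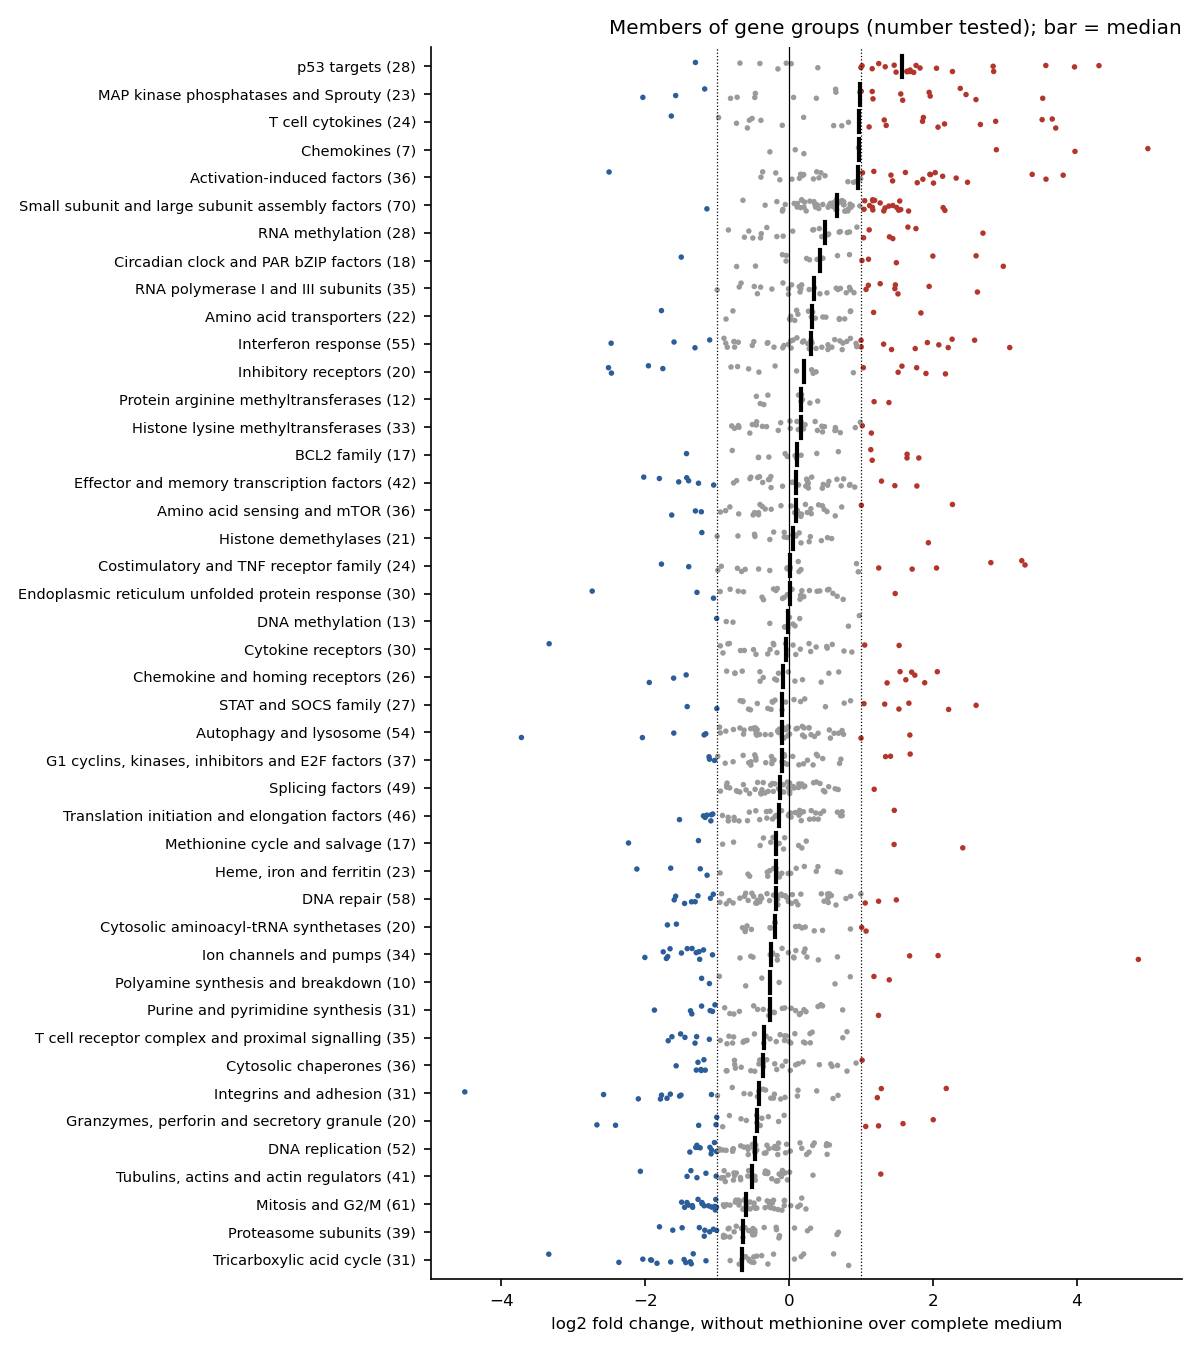
Log2 fold change without methionine over complete medium of every tested member (points) of the 44 gene groups chosen by function, with each group's median (bar), ordered by median. The dotted lines mark 2-fold. Ribosome assembly, p53 target, cytokine and activation genes lie mostly above 0, and proteasome, tricarboxylic acid cycle and mitosis genes mostly below.

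By the 2-fold rule, targets of p53 had the largest share of higher genes among the 56 groups described. The transcription factor p53 is stabilised by DNA damage and other stresses and turns on genes of cell cycle arrest and death. Of 28 target genes, 22 rose, 21 of them at least 2-fold, 4 fell and 2 were not called, with a median of 1.56. The background share of genes at least 2-fold higher is 14.1%. Plk2, a polo-like kinase gene, had 4883, 4605, 4554 and 4933 reads without methionine, against 314, 294, 288 and 313 in complete medium (log2 fold change 3.97, SE 0.046, adjusted p 2.87e-27). Cdkn1a, the cyclin-dependent kinase inhibitor p21, had 29701, 27645, 26186 and 28951 reads without methionine, against 9093, 8918, 8599 and 8357 in complete medium. Every library without methionine lay above every library with it for both genes. Ddit4l, an inhibitor of mTOR signalling, rose by 4.31 to 281 ± 33.9 reads without methionine, against 13.8 ± 4.66 in complete medium (SD, n = 4 each).

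Other targets, chosen after their values were seen, rose by similar amounts. Mdm2, the ubiquitin ligase that limits p53, had 13483, 13019.5, 12362 and 13727 reads without methionine, against 4027, 4030.2, 3801 and 3944 in complete medium. Phlda3, an inhibitor of Akt, rose by 3.57, the nuclease gene Aen by 2.85 and the death effector genes Bbc3 and Bax by 1.64 and 1.16. The transcript of p53 itself was not called, with 7791 ± 103 reads without methionine and 7999.8 ± 254 in complete medium (SD, n = 4 each; log2 fold change -0.04, adjusted p 0.231), and was called higher with total-read scaling (0.12) and lower in the FPKM table with a block for the replicate number (-0.16). The targets that fell most were Sesn1 (-1.30), a stress-induced regulator of mTOR, and Fdxr (-0.68), a mitochondrial ferredoxin reductase. Sesn2 (2.27) rose and is also a known target of ATF4, the factor of the amino acid response.

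The promoter of Cdkn1a is shown because the core letters of a p53 response element, CATGNNNNNNCATG, searched on both strands and set in capitals, occur in it. The sequence is the 250 bases before a start of the gene in RefSeq on GRCm38.p6, at chr17:29090729-29090978 on the plus strand, read 5′ to 3′. It is 1 of 2 windows of the gene, and the letters are in 0.49% of 32851 such windows of all genes. Whether p53 targets hold the letters more often than other genes was not tested.
Cdkn1a: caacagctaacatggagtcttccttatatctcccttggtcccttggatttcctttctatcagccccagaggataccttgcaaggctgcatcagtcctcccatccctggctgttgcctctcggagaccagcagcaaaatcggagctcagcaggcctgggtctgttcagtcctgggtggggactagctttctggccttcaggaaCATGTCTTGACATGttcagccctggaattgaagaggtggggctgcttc

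Genes of the BCL2 family moved in both directions. Of 17 tested, 9 rose, 5 at least 2-fold, 4 fell, 1 at least 2-fold, and 4 were not called (median 0.11). Bcl2l1, which encodes the survival protein BCL-XL, had 6841, 6759.9, 6999.9 and 6844 reads without methionine, against 1981, 1936, 1966 and 1968 in complete medium. Pmaip1, which encodes the death effector NOXA, rose by 1.64, so both a protective and a killing member rose. Bmf (-1.42) and Bad (-0.79), both death effectors, fell.

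**Figure D3:**
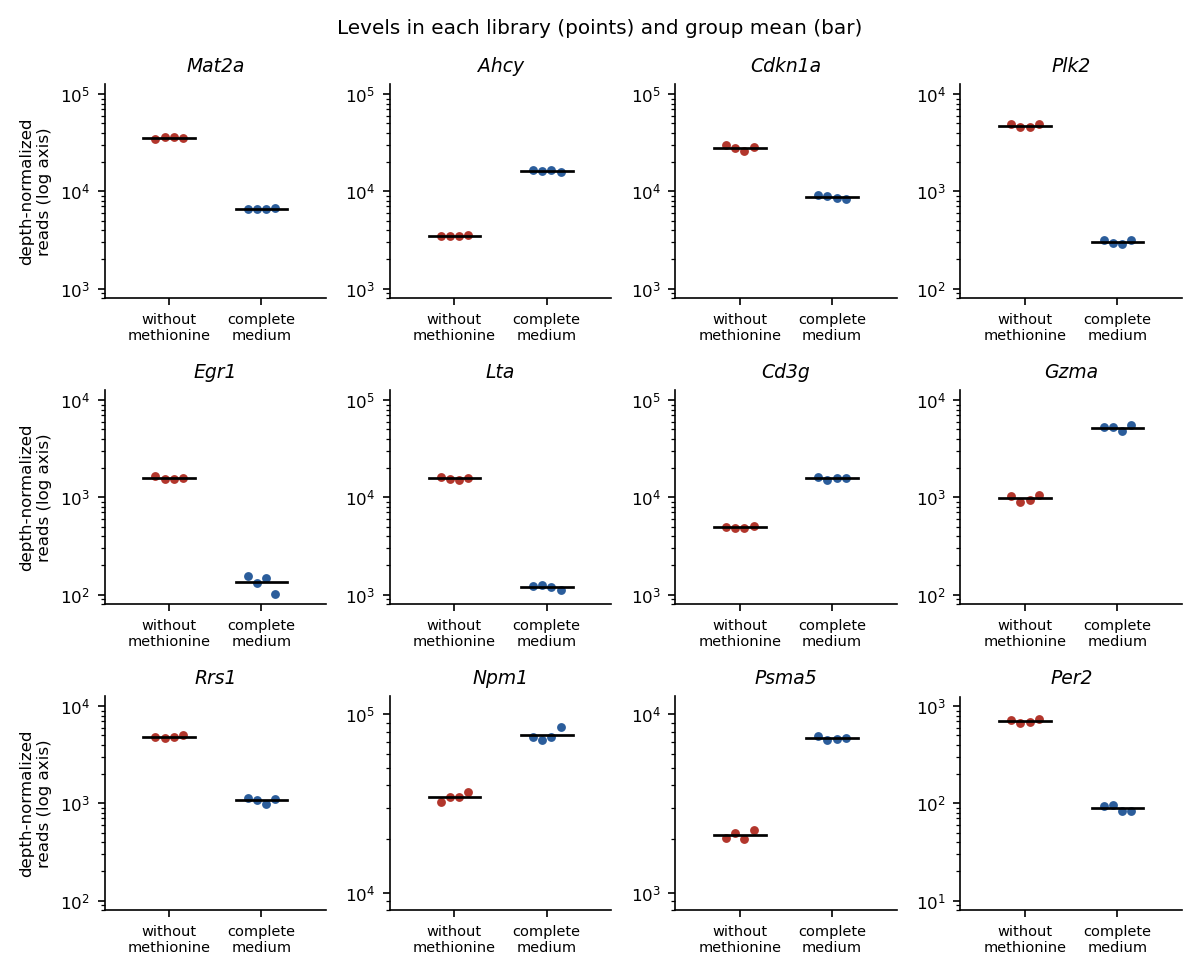
Depth-normalized reads of 12 named genes in the 4 libraries without methionine (left of each pair) and the 4 libraries of complete medium (right of each pair), on log axes, with the group mean as a bar. The groups do not overlap for any of the 12, nor for 81.3% of all genes tested, so this does not set the 12 apart.

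Cell division genes were mostly lower. Of 61 mitosis and G2/M genes, 53 fell and 4 rose, against backgrounds of 42.5% and 43.3%, 16 of them fell at least 2-fold, and the median was -0.59. Bub1, a kinase of the spindle checkpoint, had 2316, 2535, 2338 and 2409 reads without methionine, against 6258, 6449, 6773 and 7566 in complete medium. Kif22, a chromosome-arm motor, fell by 1.45. The rises were small, such as 0.24 for the kinetochore gene Spc25, whose FPKM values gave an adjusted p of 0.279. Of 52 DNA replication genes, 39 fell, 11 at least 2-fold, and 10 rose (median -0.47). Pold1, the catalytic subunit of polymerase delta, stood at 4332 ± 56.7 reads without methionine and 10645 ± 508 in complete medium (SD, n = 4 each). Rfc4, a clamp loader subunit, fell by 1.38, while Dbf4, the activator of the replication kinase Cdc7, rose by 0.56. Fbxo5, which encodes the inhibitor EMI1 of the anaphase-promoting complex, rose by 1.62, to 9435 ± 212 reads without methionine, against 3064 ± 118 in complete medium (SD, n = 4 each).

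Regulators of G1 were mixed. Of 37 tested, 12 rose and 19 fell (median -0.10). Scaling each library to its total reads lifted the median of all genes to 0.17, against 0.009 here, and lifted medians near 0, this one included, above 0. Beside the rise of Cdkn1a, the inhibitor gene Cdkn1b (p27) fell by 1.03 and Mxd3, a partner of MAX, by 1.11. Of 58 DNA repair genes, 17 rose and 35 fell (median -0.18). The base excision gene Apex1 had 5540.2, 5444, 5775 and 5929 reads without methionine, against 2122, 2103, 1926 and 1917 in complete medium, and the excision nuclease gene Ercc5 rose by 1.25. Rad51c (-1.59) and Fanci (-1.57), which act in recombination and crosslink repair, fell.

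Genes that T cells switch on after receptor engagement were mostly higher without methionine. The group of activation-induced genes included factors of the NR4A, EGR, AP-1, NFAT and NF-kB families and other genes. Of its 36 members, 30 rose, 17 at least 2-fold, and 4 fell (median 0.97). Egr1, an immediate early zinc finger factor, had 1674, 1538, 1556 and 1601 reads without methionine, against 157, 133, 148 and 101 in complete medium (log2 fold change 3.57, SE 0.094, adjusted p 1.04e-20). Egr2, its relative, had 372, 392, 334 and 389.5 reads without methionine, against 40.3, 38.1, 27.9 and 34.0 in complete medium. Relb, a subunit of the alternative NF-kB complex chosen after its values were seen, stood at 3582 ± 187 reads without methionine and 641 ± 39.9 in complete medium (SD, n = 4 each). Ier3, an early response gene of cell survival, went the other way, with 289, 293, 280.3 and 361 reads without methionine, against 1657, 1499, 2083 and 1715 in complete medium, and Traf1 fell by 0.39.

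Feedback inhibitors of MAP kinase and G protein signalling followed the same direction more often than not. Of 23 DUSP, Sprouty, SPRED and RGS genes, 15 rose, 11 at least 2-fold, and 7 fell (median 0.98). Dusp4, a nuclear MAP kinase phosphatase, had 6222, 6176, 6603 and 5969 reads without methionine, against 607, 556, 506 and 498 in complete medium. Rgs1, which shortens chemokine receptor signals, rose by 2.60. Spred3 (-2.03) and Rgs10 (-1.57) fell.

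Cytokine genes were also more often higher than lower. Of 24 tested, 16 rose, 12 at least 2-fold, and 7 fell (median 0.97). Lta, which encodes lymphotoxin alpha, had 16300.1, 15423, 15212 and 15866 reads without methionine, against 1239, 1243, 1204 and 1119 in complete medium (log2 fold change 3.71, adjusted p 2.28e-28). Ifng rose by 3.66 and Tnfsf4, the OX40 ligand gene chosen after its values were seen, by 3.52. A pair of other ligand genes of the TNF family fell, Tnfsf14 (LIGHT) with 115, 142, 136 and 137 reads without methionine, against 413, 379.6, 409 and 448 in complete medium, and Tnfsf9 (4-1BBL) by 0.98. Only 7 of 17 chemokine genes reached the minimum level, of which 4 rose and 1 fell (median 0.97, but 2.88 among those averaging 50 reads or more and 2.16 over the 5 tested in the FPKM table). Cxcl10, a ligand of CXCR3, had 231, 259, 254 and 274 reads without methionine, against 10.1, 8.47, 5.40 and 5.23 in complete medium. Ccl3 (3.98) and Ccl4 (2.88), chosen after their values were seen, rose, and Ccl5 fell by 0.27, though not below the threshold when scaled to total reads (-0.11, adjusted p 0.138).

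Genes of the killing machinery mostly moved the other way, though large changes were split. Of 20 granzyme, perforin and granule genes, 16 fell, 5 at least 2-fold, and 4 rose, all 4 at least 2-fold (median -0.45). Gzma, which encodes the tryptase granzyme A, had 1038, 892, 941 and 1069 reads without methionine, against 5291, 5313, 4811 and 5516 in complete medium, and the granule docking gene Rab27a fell by 1.0. Gzmb (-0.38, but higher by 0.24 with quantile normalization) and the perforin gene Prf1 (-0.59), chosen after their values were seen, fell by less. Gzmc, whose close paralogs may share its reads, had 901, 869, 905 and 957 reads without methionine, against 294, 295, 324 and 295 in complete medium. Serpinb9, the granzyme B inhibitor that shields the killer cell, rose by 1.25.

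Genes of the receptor that starts these responses were lower more often than higher. Of 35 T cell receptor and proximal signalling genes, 23 fell and 8 rose (median -0.35). Cd3g had 4925, 4841, 4902 and 5056 reads without methionine, against 16252, 15115, 15826 and 15964 in complete medium, and Ptpn6, the inhibitory phosphatase SHP-1, fell by 1.63. Bcl10, an adaptor between the receptor and NF-kB, rose by 0.75. Of 24 costimulatory and TNF receptor genes, 11 rose, 6 at least 2-fold, and 8 fell, 2 at least 2-fold. Their median was 0.01, but below 0 in the FPKM table. It was -0.0053 and -0.0015 without replicate 0 of the libraries lacking methionine or replicate 1 of complete medium. Cd80, best known as a ligand on antigen-presenting cells, had 1591, 1487, 1466 and 1508 reads without methionine, against 218, 234, 201 and 209.9 in complete medium. Tnfrsf10b, the TRAIL receptor, rose by 2.05. Cd27 (-1.77) and Tnfrsf8 (-1.39), receptors for costimulatory ligands, fell.

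Inhibitory receptors did not move together. Of 20 tested, 10 rose and 9 fell (median 0.21, below 0 among genes averaging 50 reads or more). Btla had 2224, 2325, 2282 and 2221 reads without methionine, against 522, 471, 475 and 536 in complete medium, and Cd200, the ligand of an inhibitory receptor, rose by 1.90. The PD-1 ligand gene Cd274, chosen after its values were seen, rose by 1.77. Lair1, a collagen receptor, had 124, 129, 114 and 108 reads without methionine, against 690.1, 636, 718 and 672 in complete medium, and Cd244 (-2.47) fell, as did Lag3 (-1.75), an MHC class II receptor chosen after its values were seen.

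Genes of migration were also split. Of 26 chemokine and homing receptor genes, 10 rose, 7 at least 2-fold, and 12 fell (median -0.08, above 0 with total-read scaling). Ccr4, a receptor for CCL17 and CCL22, had 7582, 7735, 7640.5 and 7626 reads without methionine, against 1849, 1902, 1818 and 1755 in complete medium, and the prostaglandin E2 receptor gene Ptger2 rose by 1.89. Cxcr4 (-1.60), the receptor for CXCL12, fell. Integrin and adhesion genes mostly fell, 21 of 31 against 5 that rose (median -0.42). Itga7, a laminin-binding integrin chain, had 29.5, 22.7, 25.5 and 38.7 reads without methionine, against 648, 628, 709 and 700.3 in complete medium, and Itgae, the CD103 chain that holds T cells in epithelium, fell by 2.09. Icam1, the ligand of LFA-1, had 8781, 8480.3, 8445 and 8837 reads without methionine, against 1876, 1899, 1906 and 1906 in complete medium.

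Cytokine receptors and their signalling genes were split. Of 30 receptor genes, 10 rose and 13 fell (median -0.03, above 0 with total-read scaling and with quantile normalization), with Il21r (1.53) and Ifngr2 (1.05) up and Il18r1 (-0.95) and Il7r (-0.92) down. Of 27 STAT, JAK and SOCS family genes, 11 rose, 6 at least 2-fold, and 13 fell, 2 at least 2-fold (median -0.10, above 0 with total-read scaling). Cish, a feedback inhibitor that STAT5 induces, had 19875, 19205, 19029.8 and 19138 reads without methionine, against 3030.1, 3339, 3253 and 3113 in complete medium, and Socs1, an inhibitor of JAK kinases, 4486, 3608, 4309 and 4298 against 968, 993, 806 and 820.5. Jak3, the kinase of the common gamma chain, had 6255, 5677, 5586 and 5899.7 reads without methionine, against 16213, 16416, 15398 and 14432 in complete medium, and Stat5b fell by 1.0.

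Among 42 effector and memory transcription factors, 21 rose and 19 fell (median 0.09). Maf, a factor of IL-10 expression, had 539 ± 46.7 reads without methionine and 157 ± 15.3 in complete medium, and Ikzf4 had 1492 ± 85.1 and 538 ± 50.4 (SD, n = 4 each). Bcl6, a repressor linked to memory and follicular cells, had 85.1, 63.3, 72.8 and 77.5 reads without methionine, against 313, 330.2, 271 and 304 in complete medium, and Irf8 fell by 1.80.

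Interferon-response genes rose more often than they fell, 32 against 17 of 55 (median 0.31), with 11 at least 2-fold higher and 4 at least 2-fold lower. Ifit1, which binds viral RNA, had 327, 311, 308 and 289 reads without methionine, against 40.3, 63.5, 54.0 and 47.9 in complete medium, and Rtp4 304, 305, 298 and 310.0 against 48.1, 77.6, 64.8 and 62.7. Isg15, a ubiquitin-like modifier chosen after its values were seen, had 209, 212, 224 and 289.6 reads without methionine, against 42.5, 42.3, 46.8 and 68.8 in complete medium. All of these were low in complete medium. Dhx58, an RNA sensor of the RIG-I family, had 269, 275, 272 and 263 reads without methionine, against 1611, 1399.8, 1465 and 1538 in complete medium, and Oas3 fell by 1.60. The immunoproteasome genes Psmb8 (-0.76) and Psmb9 (-1.10), chosen after their values were seen, fell like B2m while the class I heavy chains rose.

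The promoters of Ifit1 and Isg15 are shown because they carry the interferon-response letters GAAANNGAAA, searched on both strands with overlapping matches and marked in capitals, which 2.98% of 32851 windows hold. Both are the 250 bases before the start of the gene in RefSeq on GRCm38.p6, read 5′ to 3′ on the strand of the gene. Ifit1 lies on the plus strand at chr19:34640639-34640888 and Isg15 on the minus strand at chr4:156200819-156201068. Whether interferon-response genes hold the letters more often than other genes was not tested.
Ifit1: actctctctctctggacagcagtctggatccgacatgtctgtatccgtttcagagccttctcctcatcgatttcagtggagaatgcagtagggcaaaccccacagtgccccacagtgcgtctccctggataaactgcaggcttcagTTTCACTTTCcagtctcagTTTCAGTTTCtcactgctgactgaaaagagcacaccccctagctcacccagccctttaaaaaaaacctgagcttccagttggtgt
Isg15: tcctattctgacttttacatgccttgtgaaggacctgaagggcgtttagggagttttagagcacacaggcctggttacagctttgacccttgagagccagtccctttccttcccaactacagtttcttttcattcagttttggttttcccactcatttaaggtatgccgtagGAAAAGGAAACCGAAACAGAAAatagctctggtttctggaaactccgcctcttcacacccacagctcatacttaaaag

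Clock genes changed by amounts that differed between members. The circadian clock is a loop in which CLOCK and BMAL1 turn on the PER and CRY repressors and the REV-ERB receptors. Of 18 clock and PAR bZIP genes, 12 rose, 6 at least 2-fold, and 3 fell (median 0.43). Per2 had 729, 679, 692 and 740.3 reads without methionine, against 95.1, 96.0, 82.8 and 83.6 in complete medium, and Nr1d2, which encodes REV-ERB beta, 2293, 2307, 2288 and 2387 against 385, 357, 352 and 437. Nr1d1, which encodes REV-ERB alpha, Tef, a PAR bZIP factor, and Gm129, the Ciart repressor gene by its RefSeq synonym, were chosen after their values were seen and rose by 2.00, 1.49 and 1.11. In FPKM the fold of Nr1d1 was smaller, at 2.58 without methionine and 1.5 in complete medium. Npas2, a paralog of Clock, had 274, 238, 211 and 202 reads without methionine, against 597, 703, 670.2 and 635 in complete medium, and Per1 fell by 0.73 although its paralog Per2 rose. The promoter of Ciart, the 250 bases before its start at chr3:95882229-95882478 on the minus strand of GRCm38.p6 in RefSeq, is shown 5′ to 3′ with its E-box letters CACGTG in capitals. These letters read the same on both strands, and 6.02% of 32851 windows hold them. Whether clock genes hold the letters more often than other genes was not tested.
Ciart: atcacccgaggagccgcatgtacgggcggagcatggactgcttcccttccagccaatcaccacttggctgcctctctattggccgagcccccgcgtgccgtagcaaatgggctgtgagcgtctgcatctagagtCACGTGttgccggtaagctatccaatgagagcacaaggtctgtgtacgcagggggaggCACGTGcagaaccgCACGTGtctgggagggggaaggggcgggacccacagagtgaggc

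Genes of the methionine cycle moved in both directions. Of 17 genes of this cycle and of methionine salvage, 5 rose and 11 fell (median -0.17). Mat2a, at chr6:72432796-72439556 on GRCm38, had 34711, 36002, 35866 and 35085 reads without methionine, against 6599, 6652, 6578 and 6716 in complete medium. Mtrr, which reactivates methionine synthase, had 2346, 2421, 2289 and 2290.2 reads without methionine, against 874, 852, 781 and 888 in complete medium. Ahcy, at chr2:155059310-155074497, had 3507, 3439.8, 3439 and 3522 reads without methionine, against 16448, 16134, 16701 and 15985 in complete medium, and the salvage enzyme gene Apip fell by 1.26. Per length, Mat2a stood at 365 FPKM without methionine and 67.1 in complete medium, and Ahcy at 40.3 and 196, so the gene that was higher of the 2 differed between the media.

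Polyamine genes did not follow 1 direction. Of 10 tested, 4 rose and 6 fell (median -0.26). Odc1, the rate-limiting decarboxylase, had 25069, 25879.8, 25663 and 25748 reads without methionine, against 11498, 11505, 10819.5 and 11333 in complete medium, and Srm, spermidine synthase, rose by 1.39. Paox, an oxidase of acetylated polyamines, fell by 1.21, and Oaz1, the antizyme that targets ornithine decarboxylase for breakdown, by 0.97.

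Writers, readers and erasers of methyl marks moved in both directions. Of 28 RNA methylation genes, 18 rose, 7 at least 2-fold, and 9 fell, none of them by 2-fold (median 0.50). Trmt61a, the catalytic subunit of the tRNA m1A methyltransferase, had 1609.8, 1709.5, 1697 and 1709 reads without methionine, against 287, 271, 248 and 231 in complete medium (log2 fold change 2.70, adjusted p 1.05e-21). Ythdf2, a reader of m6A that recruits decay, had 9501, 9630.1, 9845 and 9578 reads without methionine, against 2757, 2828, 2789.7 and 2972 in complete medium, and the nuclear reader gene Ythdc1, chosen after its values were seen, rose by 1.65. Mettl16, which in human cells is known to methylate the MAT2A transcript, had 2927, 3098, 3007 and 3116 reads without methionine, against 1199, 1166, 1058 and 1192 in complete medium. Mettl3, the main m6A writer, was chosen after its values were seen and rose by 0.46, the m6A eraser gene Alkbh5 fell by 0.62 and the cap methyltransferase gene Pcif1 by 0.84. Of the 19 Mettl genes, some of which are in that group, 11 rose and 6 fell (median 0.46), with Mettl1 at 1.44, Mettl8 at -1.66 and Mettl5 at -0.50.

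On proteins and DNA, 18 of 33 histone lysine methyltransferase genes rose and 12 fell (median 0.17). Setd2, the enzyme that trimethylates H3K36, had 11594, 11361, 11168 and 10904 reads without methionine, against 4741, 5091, 5099 and 5448 in complete medium, the H4K20 enzyme gene Suv420h1 rose by 1.02, and the H3K9 enzyme gene Ehmt2 (G9a) fell by 0.76 and Smyd3 by 0.80. Of 21 demethylase genes, 10 rose and 7 fell (median 0.06, below 0 in the FPKM table), from 1.94 for Kdm4d to -1.21 for the H3K27 demethylase gene Kdm6b, with Kdm2a at 0.59 and Kdm4b at -1.0. Of 12 arginine methylation genes, 8 rose and 4 fell (median 0.17), with Prmt6 at 1.39, the PRMT5 partner gene Wdr77 at 1.18, Prmt1 at -0.45 and Prmt2 at -0.40. Among 13 DNA methylation genes, 4 rose and 4 fell (median -0.01, but above 0 with total-read scaling, and 0.017 and 0.0018 without replicate 2 of the libraries lacking methionine or of complete medium). The maintenance methyltransferase gene Dnmt1 had 17756, 17963, 17897 and 17402 reads without methionine, against 32167, 32427, 32361 and 33013 in complete medium, and its recruiter Uhrf1 9714, 10052, 10153 and 9679.6 against 20019.6, 19934, 19783 and 19717, while Uhrf2 (0.98) and Mbd1 (0.83) rose.

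Genes of amino acid import and sensing came next. Of 22 amino acid transporter genes, 14 rose, 2 at least 2-fold, and 3 fell (median 0.32). Slc3a2 and Slc7a5 encode the chains of the large neutral amino acid transporter LAT1, which carries methionine. Slc3a2 had 18428, 18789.7, 18696 and 18728 reads without methionine, against 8395, 8629, 8048 and 7969 in complete medium, and Slc7a5 rose by 0.86. Slc43a2, another importer of large neutral amino acids, had 1016, 1057, 994 and 1035 reads without methionine, against 3451, 3529, 3665 and 3379 in complete medium, and the taurine transporter gene Slc6a6 fell by 0.87. Of 36 sensing and mTOR genes, 17 rose and 15 fell (median 0.09, below 0 in the FPKM table). Sesn2, a leucine sensor that restrains mTORC1, had 5054, 4595, 4498 and 4808 reads without methionine, against 966, 1072, 1007 and 881 in complete medium, while its paralog Sesn1 had 925, 930.4, 975 and 961 against 2356, 2249, 2307 and 2431. The Rag GTPase genes likewise diverged, with Rragb at 1.01 and Rragd at -1.63.

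Assembly factors of the ribosome were mostly higher. Of 70 assembly factors of the ribosomal subunits, 62 rose, 20 at least 2-fold, and 6 fell (median 0.66). Rrs1, an assembly factor of the large subunit, had 4836, 4667, 4779 and 5072 reads without methionine, against 1126, 1082, 992 and 1108 in complete medium, and Grwd1 rose by 2.14. Npm1, the abundant nucleolar chaperone, had 32457, 34590.4, 34574 and 36889 reads without methionine, against 75006, 71841, 74314 and 84414 in complete medium, and Utp11l fell by 0.64. Of 35 genes of RNA polymerases I and III, 24 rose, 8 at least 2-fold, and 8 fell (median 0.35). Polr3d, a subunit of polymerase III, had 1784, 1668, 1786 and 1794 reads without methionine, against 291, 305, 276 and 270.0 in complete medium, and Cd3eap, a subunit of polymerase I, rose by 1.95. Polr3gl (-1.0) and Gtf3a, which encodes TFIIIA (-0.69), fell.

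Of 46 initiation and elongation factor genes, 18 rose and 24 fell, 1 and 7 of them at least 2-fold (median -0.14, above 0 with total-read scaling and with quantile normalization). Beside Eef1a1, the eIF3 subunit gene Eif3h fell most, with 5863, 5988, 6072 and 6149 reads without methionine, against 18003, 16984, 16815 and 17327 in complete medium. Eif1a, a scanning factor, had 8525, 8956, 8937 and 9329 reads without methionine, against 3504, 3021, 3137 and 3309 in complete medium, and Eif5, which sets off GTP hydrolysis at the start codon, rose by 0.74. Of 20 cytosolic tRNA synthetase genes, 9 rose and 11 fell (median -0.19). Yars had 11469, 11833, 12053 and 12524 reads without methionine, against 5974, 5732, 5493 and 5574 in complete medium, and Qars 2935, 2970.1, 3019 and 2968 against 9723, 9169.6, 9875 and 9609.9, so synthetases for tyrosine and glutamine moved in opposite directions. Aars rose by 1.01 and Dars fell by 1.56.

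Proteasome genes mostly fell. Of 39 proteasome genes, 34 fell and 5 rose, against backgrounds of 42.5% and 43.3% (median -0.64). Psma5, a subunit of the core ring, had 2026, 2149, 2010.0 and 2236 reads without methionine, against 7565, 7138, 7240.0 and 7366 in complete medium, and Psmb3 fell by 1.61. The rises were those of regulatory subunits such as Psmd7 (0.69) and the ubiquitin receptor Adrm1 (0.67). Of 36 chaperone genes, 23 fell and 10 rose (median -0.36), with Hspa4l at -1.29, the co-chaperone gene Dnajb1 at 0.81 and Hspa9, which works in mitochondria, at 0.93. Of 30 genes of the endoplasmic reticulum stress response, 14 rose and 11 fell (median 0.01, but below 0 with edgeR and DESeq2, and -0.0049, -0.0014 and -0.0020 without replicate 1 of the libraries lacking methionine, or replicate 1 or 2 of complete medium). Ero1l, the oxidase that makes disulfide bonds there, had 7409, 7575, 7490.4 and 7813 reads without methionine, against 50488, 48329, 48812 and 54161 in complete medium, and the chaperone gene Hsp90b1 fell by 1.28, while Dnajb9 (1.48) and the stress sensor gene Ern1 (0.75) rose. Of 54 autophagy and lysosome genes, 19 rose and 28 fell (median -0.10, above 0 with total-read scaling). The autophagy receptor gene Sqstm1 rose by 0.76 and 9430023L20Rik, Atg101 by its RefSeq synonym, by 1.68. Wipi1, a phosphoinositide-binding autophagy protein, had 15.2, 15.8, 20.9 and 12.2 reads without methionine, against 197, 234, 211 and 239.5 in complete medium.

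Of 31 genes of the tricarboxylic acid cycle and pyruvate entry, 26 fell, 13 at least 2-fold, and 5 rose (median -0.65). Idh1, the cytosolic isocitrate dehydrogenase, had 126, 150.3, 114 and 136 reads without methionine, against 1272, 1236, 1367 and 1463 in complete medium. Pdk1, a kinase that shuts off pyruvate dehydrogenase, fell by 2.03, and Pdp1, the phosphatase that switches it on again, rose by 0.62, as did Dlst (0.83), a subunit of 2-oxoglutarate dehydrogenase. Of 31 nucleotide synthesis genes, 10 rose and 19 fell (median -0.27). Impdh2, which commits inosine monophosphate to guanine nucleotides, had 4674, 4833, 4799.8 and 5075 reads without methionine, against 17709.8, 17117, 17625 and 18409 in complete medium, Hprt fell by 1.37, and Umps, the last enzyme of uridine monophosphate synthesis, rose by 1.24. Of 23 heme and iron genes, 6 rose and 15 fell (median -0.18). Tfrc, the transferrin receptor, had 7067, 7477, 7279 and 7477 reads without methionine, against 31460.1, 30798, 31098 and 33528 in complete medium, while the iron-sulfur cluster genes Iscu (0.71) and Glrx5 (0.67) rose.

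The cytoskeleton fell with few exceptions. Of 41 tubulin, actin and actin regulator genes, 35 fell and 2 rose (median -0.51), and the risers were the beta-tubulin genes Tubb4b (1.28) and Tubb2a (0.33, but with an adjusted p of 0.16 from FPKM). Tubb5, another beta-tubulin gene, had 36555, 36707, 36824 and 36834 reads without methionine, against 97877, 96251, 99921 and 98117 in complete medium, and Tuba1b fell by 1.36. Per length, Tubb4b stood at 967 FPKM without methionine and 421 in complete medium, and Tubb5 at 393 and 1124, so Tubb4b was the higher of the 2 only without methionine. Tubulin genes are close paralogs and may share reads. Of 29 kinesin genes with a Kif symbol, 22 fell and 5 rose (median -0.62). Kif21b had 4926, 4978, 4974 and 4738 reads without methionine, against 22713, 23687, 23051 and 22328 in complete medium, Kif24 fell by 2.45, and Kif13a (1.74) and Kif1b (1.0), which carry vesicles and organelles, rose.

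Of 34 ion channel and pump genes, 22 fell, 13 at least 2-fold, and 10 rose (median -0.24). Atp2a3, a calcium pump of the endoplasmic reticulum, had 4947, 5219, 5142 and 4694 reads without methionine, against 16828, 16709, 17119.5 and 16468 in complete medium, Atp2b4, a calcium pump of the plasma membrane, fell by 1.68, and Atp1b1, a sodium pump subunit, rose by 2.07. Splicing factor genes changed little, with 14 of 49 higher and 28 lower, 1 and 0 of them at least 2-fold (median -0.13, above 0 with total-read scaling). Sf3b4 (1.18) and Prpf4 (0.68) rose and the small nuclear ribonucleoprotein genes Snrpd1 (-0.95) and Snrpa1 (-0.87) fell.

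Genes were also grouped by symbol, which uses no knowledge of function. Of 324 tested genes with a Zfp symbol, 230 rose and 55 fell, 85 and 8 of them at least 2-fold, against backgrounds of 14.1% and 13.6%, and the median was 0.52. Most of these genes encode DNA-binding proteins with arrays of C2H2 fingers. Zfp558 had 228, 216, 221 and 279 reads without methionine, against 34.7, 12.7, 25.2 and 25.3 in complete medium. Zfp395 had 822, 835, 826 and 790.2 reads without methionine, against 3325, 3529, 3416 and 3191 in complete medium, and Zfp523 fell by 1.94. Trim28, the corepressor that KRAB zinc finger proteins recruit, had 8215, 7991, 8430.3 and 8471 reads without methionine, against 15441, 15565, 15776 and 14943 in complete medium. In the Trim family 24 of 41 rose and 10 fell (median 0.32), with Trim66 at 3.63, Trim6 at 1.72 and Trim3 at -1.58.

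Other symbol families stood near the background. For Slc genes 98 rose and 81 fell of 210 (median 0.07), from 4.31 for the glutamate transporter gene Slc1a2 to -3.63 for the lactate transporter gene Slc16a3 among those named apart from Slc4a4. For Rab genes the counts were 21 and 22 of 47 (median -0.03), and for Tmem genes 63 and 66 of 158 (median -0.06), both medians above 0 with total-read scaling and that of the Rab genes also among genes averaging 50 reads or more. Among those named were Rab20, with 235, 288, 289 and 268 reads without methionine, against 15.7, 31.0, 13.5 and 15.7 in complete medium, and Tmem221, with 30.4, 30.7, 29.1 and 38.7 against 305, 233, 310.4 and 294. Genes of ubiquitin ligases and deubiquitinases were as even, with 26 and 20 of 55 Fbx genes (median 0.02) and 20 and 19 of 44 Usp genes (median 0.02). Usp27x, which had 467 ± 23.2 reads without methionine and 80.6 ± 8.52 in complete medium, rose most of the Usp genes named by the rule, and Usp28 fell by 1.35. All 8 Gimap genes, small GTPases of lymphocyte survival that lie in 1 cluster on chromosome 6, were called, 5 higher and 3 lower (median 0.31). Over all genes 85.8% were called, so the calls do not set this family apart. Gimap9 (1.09) and Gimap1 (0.89) rose, and Gimap4 (-1.07) and Gimap3 (-0.81) fell.

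Histone and snoRNA host transcripts have unusual ends or fates. Of 57 Hist genes only 23 passed the minimum level, and 10 rose and 5 fell (median 0.61, but 1.68 among those averaging 50 reads or more). Hist1h4i had 1317, 1264, 1277 and 1326 reads without methionine, against 145, 128, 133 and 129 in complete medium, Hist3h2ba 312, 225, 241 and 273 against 23.5, 26.8, 24.3 and 32.2, and Hist2h2be 90.4, 106, 123 and 119 against 273, 202, 279 and 268. Replication-dependent histone transcripts carry no poly(A) tail, and the labels do not say how RNA was selected, so these levels may reflect a part of the transcripts only. Of 10 snoRNA host genes, 2 rose and 6 fell (median -0.40). Snhg12 (1.38) and Snhg1 (1.01) rose and Snhg3 (-1.75) and Snhg4 (-1.28) fell.

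**Figure D4:**
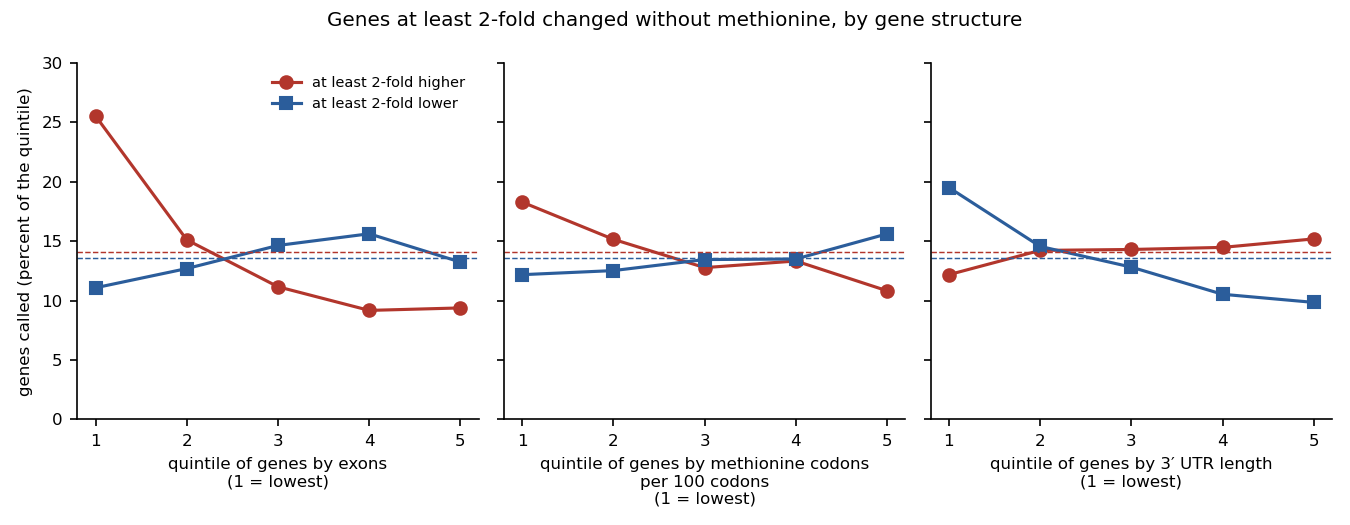
Share of genes called and at least 2-fold higher (circles) or lower (squares) without methionine, in percent, by quintile of 3 features of the GENCODE transcript of each of 11783 genes, from lowest to highest: exons, methionine codons per 100 codons and 3′ UTR length. The dashed lines mark the background of 14.1% higher and 13.6% lower.

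Of 7 features of gene structure looked at, the 3 with the largest rank correlation with the log2 fold change are described. For 11783 of the 12487 genes (94.4%) 1 transcript was taken from the GENCODE annotation of the same build. In the quintile with fewest exons (1 to 5) 25.5% of the genes rose and 11.1% fell by at least 2-fold, against 9.38% and 13.2% in the quintile with most (17 or more). Methionine codons in the coding sequence were counted because methionine itself was withdrawn. In the quintile with fewest, at most 1.21 per 100 codons, 18.3% rose and 12.2% fell by at least 2-fold, against 10.8% and 15.6% in the quintile with most, at least 2.69 per 100. For 3′ UTR length, 12.2% rose and 19.5% fell in the shortest quintile, against 15.2% and 9.84% in the longest. Zfp genes have fewer exons and methionine codons than most, with medians of 5 exons and 1.05 methionine codons per 100 against 9 and 1.89 over all matched genes. Without the Zfp genes, an alternative chosen after seeing the data, Spearman's rho with the log2 fold change was -0.13 for exons and -0.084 for methionine codons over 11462 genes, against -0.15 and -0.098 over all 11783. Over all of these genes rho was 0.11 for 3′ UTR length, 0.089 for transcript length, -0.062 for the GC content of the coding sequence, -0.030 for the span of the gene and 0.024 for coding length. These rho values are small and are across genes, which are not independent replicates and share exon number, level and length with each other.

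The last comparison asked whether methionine had the same effect in fresh medium as in melanoma supernatant. In supernatant methionine was added and not removed, so the 2 contrasts are not of the same treatment. The effect in supernatant was taken as supernatant without added methionine over supernatant with it, 4 libraries each. The 2 effects share no library. Over 12469 genes tested in all 16 libraries the log2 fold changes had a Pearson r of 0.895 across genes, and 8846 genes were called with the same sign in both, 82.9% of the calls in fresh medium and 84.8% of those in supernatant. The median size was 0.57 in fresh medium and 0.50 in supernatant. The difference itself was called for 6557 genes (52.6%). Of those called with the same sign in both media, 3135 changed more in fresh medium and 1326 less.

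Opposite effects, each called and differing by the interaction test, were seen for 585 genes (4.69%), 325 of them higher and 260 lower without methionine in fresh medium. Cox6a2, a muscle-type subunit of cytochrome oxidase, rose by 4.01 in fresh medium and fell by 1.69 in supernatant (adjusted p of the difference 3.67e-16). In fresh medium it had 90.4, 148, 141 and 132 reads without methionine, against 7.83, 8.47, 11.7 and 2.61 with it, and in supernatant 124, 163, 112 and 115 reads without added methionine, against 442, 418, 436 and 355 with it. The stress protein gene Nupr1 rose by 2.61 in fresh medium and fell by 0.97 in supernatant, and Angptl6, an angiopoietin-like gene, rose by 3.03 and fell by 0.43. In FPKM the rise of Angptl6 in fresh medium was smaller, with 26.7 without methionine and 6.85 with it. Nupr1 had 553, 592, 515 and 579 reads without methionine, against 92.8, 80.4, 93.6 and 97.6 in complete fresh medium, and 553, 571, 524 and 489 reads in supernatant, against 1073, 1024, 1069 and 1033 with methionine added. In the other direction, Fam71f2 fell by 1.36 in fresh medium and rose by 0.72 in supernatant, and Igsf5 fell by 1.09 and rose by 0.70.

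**Figure D5:**
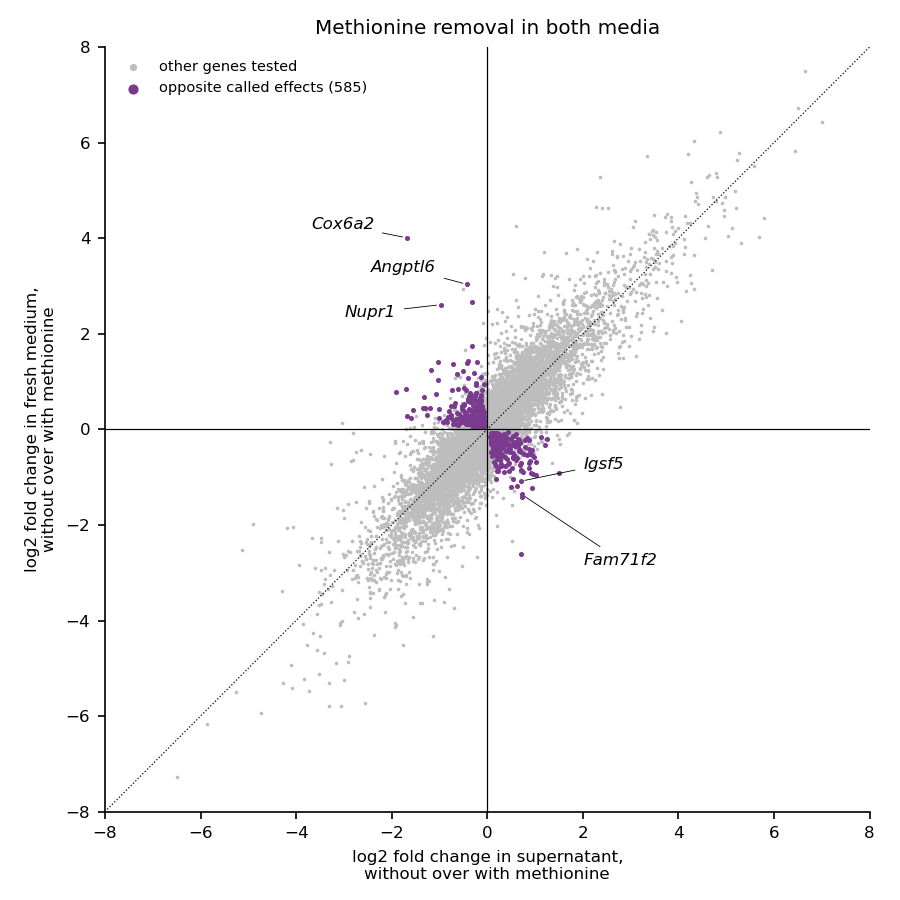
Log2 fold change of methionine removal in fresh medium (vertical axis) against that of melanoma supernatant without over with added methionine (horizontal axis), for 12469 genes. The 585 genes with opposite called effects and a called difference are coloured, and the 5 named genes are labelled.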

How the data were processed

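RNA was sequenced from 16 libraries in 4 groups of 4, and the 8 of fresh medium were compared. Gene levels were deposited as reads per gene that the authors had divided by 1 factor per library (a depth-normalized signal). Every value of every library was a whole multiple of 1 step within 0.001 reads, which gave the recovered reads, 25.8 to 42.3 M per library. The deposited FPKM values are per library and scaled to length by the authors. Per the submitters' processing notes, TopHat2 2.0.13, Bowtie2 2.2.1, Cufflinks, Cuffdiff 2.2.1, FastQC 0.11.3 and the build mm10 (GRCm38) were used, with no role or order given. The counting tool, strand and annotation are not given in the sources used here, so overlapping, antisense and paralogous genes may share reads. In the file of depth-normalized reads, 23 symbols had been turned to dates. These genes are not named, but any that reached the minimum level were tested with the others. Ribosomal protein and mitochondrial genes were not analysed here.

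The depth-normalized values were analysed as log2(value + 1) with limma 3.58.1 (R 4.3.3, mean-variance trend, two-sided), keeping genes that averaged 10 or more across the compared libraries, with Benjamini-Hochberg adjustment over all genes tested. A gene was called below 0.05, and a second rule added at least 2-fold. The difference between media was the interaction in a fit of all 16 libraries. Tests were checked on simulated counts for the recovery of known changes. That checks the calculation and not the counts of calls reported here. Within a group, pairs of libraries differed by a chi-square per gene of 2.58 to 7.69, where counting error alone gives about 1, so none was a copy. Floors cover counting error only. Replicate numbers did not pair libraries in the depth-normalized table, where deviations of same-numbered libraries had r of -0.018, -0.019, -0.032 and -0.021. In the FPKM table of the same libraries r was 0.27, 0.17, 0.42 and 0.47, so same-numbered libraries deviated together in that table only. The labels do not say whether the numbers pair libraries, and the cause was not tested.

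Gene groups, members and tests were chosen with earlier results of these data known. Groups are described by counts and medians. The text names, among called genes averaging 100 or more, the 10 largest rises and falls by fold and the 8 by reads without overlap between the groups, the 2 largest each way per gene group, Mat2a and Slc43a2, and the 3 largest opposite interactions each way. Predicted genes, small RNAs and pseudogenes were left out of the first 2 sets. Some items that the rule selects are not reported here. Other genes are given as chosen after their values were seen. Alternatives were other filters and pseudocounts, total-read and quantile scaling, all 16 libraries, a replicate block, edgeR 4.0.16 and DESeq2 1.42.0 on the recovered reads of 7 libraries, the FPKM table, and leaving out each library. Replicate 1 without methionine was not used in the count tests, because its step lies close to 1. Python 3.11.15 was used for summaries.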

Additional observations from a re-analysis of the deposited data

Results flagged for a closer look

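A library stood apart from the other 3 of its group by Dixon's criterion in 31 of 538 sets of 4 values, where chance gives about 1 in 20, or 26.9. Replicate 3 had 7 such values in each group, and no library had more. Values are depth-normalized reads.

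Without methionine, 15 values stood apart. In replicate 0 these were Fbxo5 at 9121, Kdm6b at 810.3, Kif13a at 504 and Trmt61a at 1609.8. In replicate 1 they were Fam183b at 3.95, Polr3d at 1668 and Rab27a at 2497, and in replicate 2 Aen at 12437. Replicate 3 had H2-K1 at 110842, Ier3 at 361, Kdm2a at 10383, Snrpd1 at 2195, Son at 39944, Tmem221 at 38.7 and Tubb2a at 514. In complete medium, 16 values stood apart. Replicate 0 had Ern1 at 375, Fdxr at 1449 and Gimap1 at 4858. Replicate 1 had Hist2h2be at 202, Pdp1 at 569 and Rab20 at 31.0, and replicate 2 Cd244 at 276, Eif4g2 at 31853 and Gzmc at 324. Replicate 3 had Ccng1 at 14667, Eif5 at 12153, Isg15 at 68.8, Pcif1 at 3283, Plcxd1 at 1806, Snhg1 at 2113 and Uhrf2 at 4332.

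The effect of methionine, as without over with it (added, in supernatant), differed between fresh medium and supernatant for 6557 genes by the interaction test, 585 of them with opposite called effects. The effect in fresh medium minus that in supernatant, in log2 units, was 5.70 for Cox6a2, 3.58 for Nupr1, 3.46 for Angptl6, -2.08 for Fam71f2 and -1.78 for Igsf5.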

How the results depend on the processing

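The FPKM table called 6625 of its 10942 genes, against 10710 of 12487 in the depth-normalized table, with 2986 higher and 870 at least 2-fold higher, and 8825 and 874 with a block for the replicate number. All other counts of calls stayed within 1.5 times, from 10388 with DESeq2 to 11696 without a filter, and between 10531 and 10653 when each library was left out. The block in the depth-normalized table gave 10642 calls and, for the difference between media, 6521. That difference had 6257 to 6500 calls, and 549 to 588 opposite ones, when each library was left out. Over 266 named genes and 20 alternatives, 5280 of 5289 values kept direction and call. Trp53, not called, turned to 0.12 with total-read scaling and 0.054 with quantile normalization, and Gzmb to 0.24 with the second of these. Folds moved by over 1.5-fold for 44 named genes in FPKM, where 1 was added before the log, and for 12 with a pseudocount of 5. The added 1 shrinks the fold of genes with low FPKM. As plain ratios of group means, the folds in FPKM and in reads differed by over 1.5 times for 8 of 263 named genes. The medians of 15 of 56 gene groups, between -0.14 and 0.09 except the inhibitory receptors at 0.21, changed sign under an alternative. Total-read scaling, under which the median of all genes was 0.17, gave 0.14 for DNA methylation, 0.020 for translation factors, 0.062 for autophagy, 0.062 for G1, 0.083 for homing receptors, 0.125 for cytokine receptors, 0.063 for STAT and SOCS, 0.030 for splicing, 0.129 for Rab and 0.10 for Tmem genes. Quantile normalization gave 0.035 for translation factors and 0.072 for cytokine receptors. In FPKM, with and without the block, the medians were -0.0085 for demethylases, -0.080 for amino acid sensing and -0.035 for costimulatory genes. A mean of at least 50 gave -0.043 for inhibitory receptors and 0.0057 for Rab genes. The endoplasmic reticulum median was -0.0020 with edgeR and -0.0093 with DESeq2. Leaving out each library gave -0.059 to 0.017 for DNA methylation, -0.0049 to 0.034 for the endoplasmic reticulum and -0.0053 to 0.039 for costimulatory genes. The causes were not tested. Genes with few reads in a group are limited by depth.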

Other observations

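Genes were also divided by the RefSeq biotype of their symbol or its synonym. Of 442 long non-coding RNA genes tested, 139 rose and 168 fell without methionine, with a median log2 fold change of -0.10, and 15.8% were at least 2-fold higher and 17.6% at least 2-fold lower. Of 107 transcribed pseudogenes, 47 rose and 39 fell, with 22.4% at least 2-fold higher and 19.6% lower. Over all genes these shares were 14.1% and 13.6%, and among the 11798 protein-coding genes 14.1% and 13.4%. The shares depended on level, with 25.7% and 21.5% in the quintile with fewest reads and 6.2% and 11.4% in that with most. The biotypes were not matched for level, so these shares do not show that biotype itself made a difference. Reads of pseudogenes may come in part from their parent genes, which was not tested.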
